A study of Homo sapiens with 6 samples.

Results

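Aminoacyl-tRNA synthetases are the enzymes that join each amino acid to its transfer RNA (tRNA), and the 36 genes described here are 20 listed enzymes of the cytosol and 16 listed enzymes of the mitochondrion. They were taken by name from a table of 23346 gene rows, with the symbols ending in 2 counted as mitochondrial, and all 36 were found. RNA was sequenced from cultures of the established human embryonic stem cell line KhES-1, grown on dishes coated with 0.5 µg per square cm of a laminin fragment. The tested libraries were 3 replicates in AKIT medium and the control libraries were replicates 1 and 2 in Essential 8 (E8) medium; the series has 6 samples, and E8 replicate 3 was not analysed here. E8 is a defined medium that contains FGF2 and TGF-beta, and AKIT is known for using small-molecule inhibitors (against GSK3, DYRK and calcineurin) in the place of growth factors. Both groups shared the cell line and the coating, and no genetic change is given for either. All 36 synthetases passed the filter for testing (a mean of at least 0.5 RPKM, a read count scaled by gene length and by library size), as did 14776 of all rows.

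Charged tRNAs are the substrate of the ribosome, so every cell that makes protein needs an enzyme for each amino acid. Most amino acids have separate nuclear genes for the cytosolic and the mitochondrial enzyme, and the mitochondrial enzymes serve the few proteins encoded by mitochondrial DNA. GARS and KARS are known to supply both compartments from 1 gene each. Glutamine is the exception: QARS serves the cytosol, and mitochondria charge glutamate with EARS2 and then convert it to glutamine on the tRNA. In the cytosol several synthetases sit in a multisynthetase complex on scaffold proteins, while the others work as free enzymes. The enzymes fall into structural classes I and II, which have unrelated active sites. Many cytosolic synthetase genes are known as targets of ATF4, the transcription factor of the amino acid and stress response, which binds with C/EBP proteins to a composite promoter element.

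The C/EBP-ATF element was searched in the promoter windows of the synthetases, because it is the known binding site of ATF4 in cytosolic synthetase genes. The search string was TGATGNAA on both strands, where N is any base, in RefSeq windows (build GRCh38.p14) of 250 bases before to 50 bases after a gene start. Of all 35116 windows, 3.62% held it. Of 16 cytosolic genes with a window, 7 held it, and of 14 mitochondrial genes with a window, 1 held it. These are counts of genes, some with 2 windows, whereas the share over all is one of windows. All 7 are among the cytosolic genes listed here as known ATF4 targets, of which 10 had a window. Because list and element both come from prior knowledge of ATF4, this overlap is not an independent result. The 30 bases around each cytosolic match follow, on the strand of the gene, with the match in capitals; a match that starts with TT is the element read from the opposite strand.
AARS (chr16:70289675-70289704, minus strand): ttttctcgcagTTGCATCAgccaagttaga
CARS (chr11:3057407-3057436, minus strand): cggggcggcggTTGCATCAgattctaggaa
GARS (chr7:30594834-30594863, plus strand): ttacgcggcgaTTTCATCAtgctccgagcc
IARS (chr9:92293692-92293721, minus strand): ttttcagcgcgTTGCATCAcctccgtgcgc
MARS (chr12:57488053-57488082, plus strand): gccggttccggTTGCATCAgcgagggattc
NARS (chr18:57621804-57621833, minus strand): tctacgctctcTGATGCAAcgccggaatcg
TARS (chr5:33440956-33440985, plus strand): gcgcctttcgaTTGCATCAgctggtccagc
In NARS the match lay on the strand of the gene, and in the other 6 genes on the opposite strand. The mitochondrial match was in YARS2. LARS, VARS, YARS, AARS2 and VARS2 had no entry. A match describes the letters in a window and is not evidence of binding.

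Reads were deep enough for every synthetase: the libraries rested on 16242864 to 23263095 reads, and the members had from 53 reads (RARS2 in E8 replicate 2) to 5380 reads (NARS in AKIT replicate 1). On the first principal component of all genes tested (66.5% of the variance) the AKIT libraries lay at -26.4, -15.2 and -26.2 for replicates 1, 2 and 3, and the E8 libraries at 33.8 and 34.0. On the second component (17.2%) AKIT replicate 2 stood apart at -27.3, with the other libraries between 2.1 and 12.7. All 8 listed pluripotency markers were detected in every library, with a sum of 3560 to 3690 RPKM in AKIT and 4260 and 4320 in E8. POU5F1 stood at 296 to 400 RPKM in AKIT and 313 and 342 in E8, while SOX2 (-0.79) and PODXL (-0.62) fell (limma adjusted p = 0.0162 for each). Summed over 5 listed mesoderm markers, the level was 89.2 to 144 RPKM in AKIT and 32.0 and 32.5 in E8, mostly from KDR. The sum over 5 endoderm markers was 4.16 to 5.22 RPKM in AKIT and 1.60 and 1.86 in E8. Much of that gap came from FOXA2, which rose and averaged 2.80 RPKM in AKIT and 0.537 in E8. GATA4 and GATA6, too low to be tested, were higher in every AKIT library, while AFP and SOX17 overlapped. The sum over 8 fibroblast and mesenchyme markers was 203 to 265 RPKM in AKIT and 342 and 344 in E8, mostly from THY1, which fell, as did COL1A1. In the same list COL3A1 had 5.63, 2.15 and 0.141 RPKM in AKIT against 0.0413 and 0 in E8, and LUM had 5.81, 1.83 and 0.0244 in AKIT and was at 0 in E8. The sum over 6 trophoblast and amnion markers was 3.02 to 5.55 in AKIT and 9.51 and 10.1 in E8, with CGB5 at 0 throughout. The 5 neuroectoderm markers summed to 211 to 225 RPKM in AKIT and 212 and 226 in E8, nearly all from NES, while DLK1 in that list rose to 17.7 ± 3.07 RPKM in AKIT, against 2.62 ± 0.0758 in E8. The part of these marker levels in the synthetase results was not tested. In such bulk RNA, fewer cells of a type and less RNA per cell cannot be told apart.

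The comparison of AKIT with E8 asks how the medium goes with synthetase expression. In AKIT 6 of the 20 cytosolic synthetases rose and 0 fell, against 1 that rose and 0 that fell of the 16 mitochondrial ones. Among the cytosolic genes that rose were KARS, NARS, QARS, FARSB and HARS, and the mitochondrial gene was LARS2. "Rose" and "fell" mean an adjusted p under 0.05 by limma, fitted to and adjusted over 14776 genes; by that rule 8.22% of all genes rose and 11.7% fell. Differences were small, with AKIT over E8 ratios of mean RPKM from 0.908 to 1.58 in the cytosolic class and from 0.879 to 1.61 in the mitochondrial class. Differences are given as AKIT minus E8 in units of log2(RPKM + 1), and their median was 0.36 for the cytosolic enzymes, 0.23 for the mitochondrial ones and -0.01 for all genes tested. The difference was above 0 for 18 of 20 cytosolic and 13 of 16 mitochondrial enzymes, against 48.8% of all genes. All AKIT libraries lay above both E8 libraries for 15 cytosolic and 9 mitochondrial enzymes, against 25.8% of all genes.

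**Figure D1:**
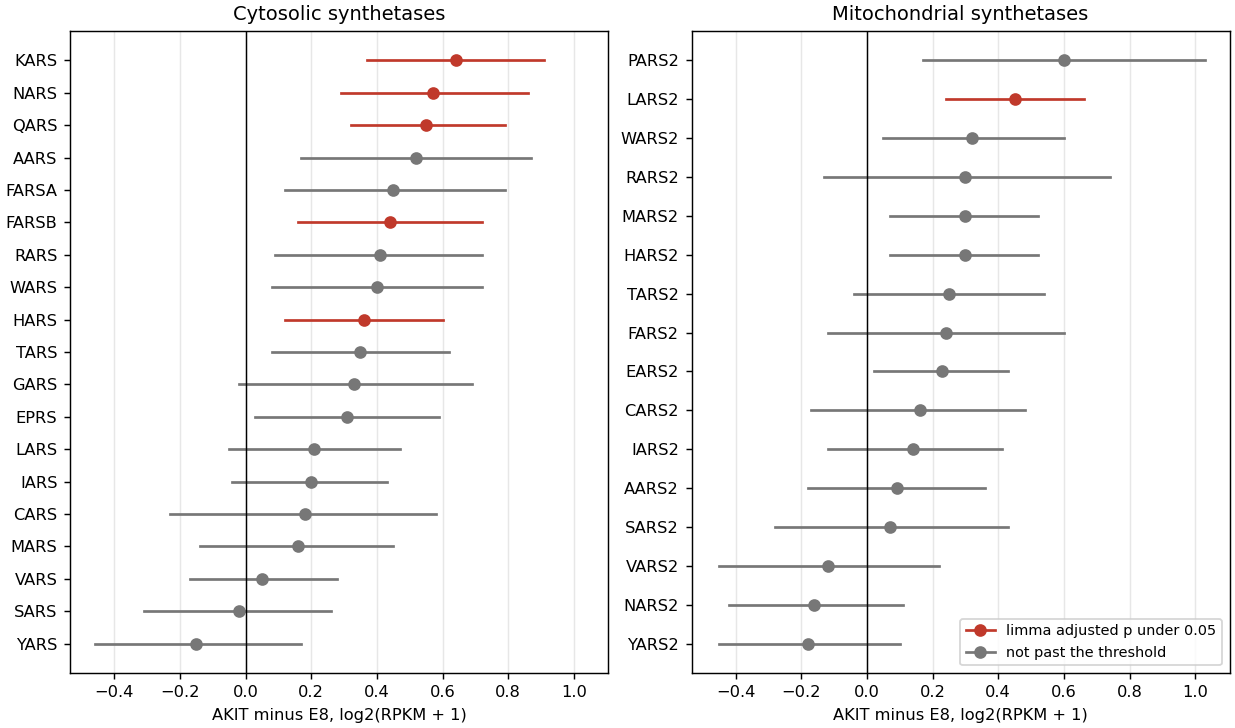
Difference between media (AKIT minus E8, in log2(RPKM + 1) units) for the synthetases described, cytosolic on the left panel and mitochondrial on the right; dots are estimates and lines 95% intervals of limma's moderated test (3 AKIT and 2 E8 libraries). Red marks genes past an adjusted p of 0.05, and most other dots also lie right of 0.

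Among the enzymes of the multisynthetase complex, 3 of 8 rose and 0 fell. KARS, the lysyl-tRNA synthetase of cytosol and mitochondrion, had 38.3, 33.1 and 38.4 RPKM in AKIT replicates 1, 2 and 3, against 21.5 and 24.6 RPKM in E8 replicates 1 and 2. Its AKIT libraries were all well above both E8 libraries, and its log2 difference was 0.64 ± 0.11 (SE; limma adjusted p = 0.0113). On this scale that was the largest of all 36 synthetases, while by the ratio of mean RPKM PARS2 was higher (1.61 against 1.58). QARS, the glutaminyl enzyme, had 24.3, 27.4 and 24.4 RPKM in AKIT and 16.7 and 17.2 in E8 (0.55 ± 0.10, limma adjusted p = 0.012). Here AKIT replicate 2, the library that stood apart, was the highest. The groups did not overlap for KARS or QARS.

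The other 5 enzymes of the complex were higher in the AKIT mean without passing. EPRS, which carries the glutamyl and prolyl activities on 1 chain, averaged 29.9 ± 3.63 RPKM in AKIT and 23.8 ± 0.625 in E8 (SD, n = 3 and 2), a difference of 0.31 (limma adjusted p = 0.11). RARS, the arginyl enzyme, had 16.2, 16.7 and 21.1 RPKM in AKIT against 13.6 and 12.9 in E8 (0.41, limma adjusted p = 0.0759). Its highest value came from AKIT replicate 3. IARS, LARS and MARS, for isoleucine, leucine and methionine, had log2 differences of 0.20, 0.21 and 0.16, with 95% intervals that all included 0. MARS alone of the complex overlapped between media, with 32.9 to 42.1 RPKM in AKIT and 31.5 and 33.3 in E8. The scaffold proteins of the complex, AIMP1, AIMP2 and EEF1E1, had log2 differences of 0.32, 0.22 and 0.13, and 0 of the 3 passed (limma adjusted p = 0.0817, 0.342 and 0.438). At an unadjusted p under 0.05 there was 1, and 0 passed with voom on recovered reads. Without AKIT replicate 2, 2 of the 3 rose.

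Of the 12 cytosolic enzymes outside the complex, 3 rose and 0 fell. NARS, the asparaginyl enzyme, had 80.8, 70.6 and 90.8 RPKM in AKIT against 54.2 and 53.1 in E8 (0.57 ± 0.12, limma adjusted p = 0.0205). It was the most abundant synthetase in every AKIT library, whereas YARS, the tyrosyl enzyme, was the most abundant in both E8 libraries. FARSB, the beta subunit of the cytosolic phenylalanyl enzyme, had 13.0, 10.8 and 13.0 RPKM in AKIT against 8.98 and 8.57 in E8 (0.44 ± 0.12, limma adjusted p = 0.0421). FARSA, its catalytic alpha subunit, had 29, 26.9 and 36.6 RPKM in AKIT against 22.8 and 21.3 in E8 (0.45 ± 0.14, limma adjusted p = 0.065). Both subunits were thus higher by about the same amount, and the ratio of FARSA to FARSB RPKM was 2.23 to 2.82 in AKIT and 2.49 to 2.54 in E8. HARS, the histidyl enzyme, had 15.4, 14.7 and 16.4 RPKM in AKIT against 11.5 and 12.2 in E8 (0.36 ± 0.10, limma adjusted p = 0.0456). The libraries of the 2 media did not overlap for any of these 4 genes.

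AARS, the alanyl enzyme, came closest to the threshold, with 56.1, 45.4 and 64.3 RPKM in AKIT against 39.0 and 36.7 in E8 (0.52 ± 0.15, limma adjusted p = 0.0503). WARS, the tryptophanyl enzyme known to be induced by interferon gamma, averaged 67.9 ± 9.69 RPKM in AKIT and 50.8 ± 2.61 in E8 (0.40, limma adjusted p = 0.0791). TARS, the threonyl enzyme, averaged 66.8 ± 7.53 RPKM in AKIT and 52.0 ± 0.517 in E8 (0.35, limma adjusted p = 0.0724). For these 3 and for GARS, the glycyl enzyme (0.33, limma adjusted p = 0.156), every AKIT library was above both E8 libraries, and AKIT replicate 3 was the highest. CARS and VARS, for cysteine and valine, had log2 differences of 0.18 and 0.05 with overlapping libraries. SARS, the seryl enzyme, stood at 23.3, 18.9 and 22.6 RPKM in AKIT and 20.9 and 22.9 in E8, a difference of -0.02 with a 95% interval of -0.31 to 0.26. YARS stood at 47.6, 44.9 and 59.2 RPKM in AKIT and 54.6 and 56.9 in E8 (-0.15, 95% interval -0.46 to 0.17). SARS and YARS were the cytosolic enzymes with a difference below 0, and their intervals leave room for a change in either direction.

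**Figure D2:**
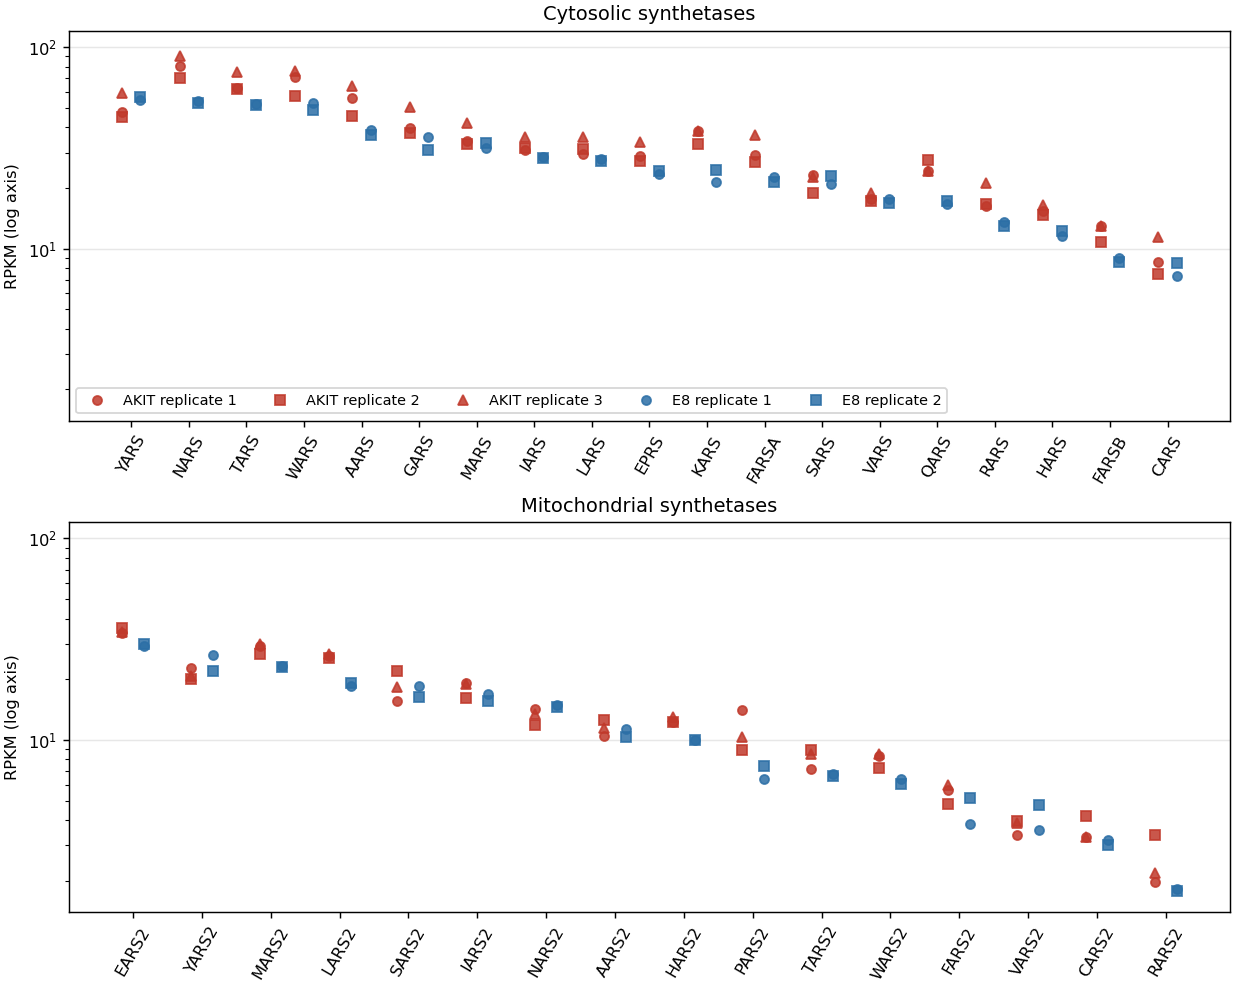
RPKM of the synthetases described, on a log axis, cytosolic above and mitochondrial below, ordered by the E8 mean; red symbols are AKIT libraries, blue symbols E8 libraries, and shapes mark the replicate. NARS and KARS show red symbols clear of the blue ones, while SARS, YARS and VARS overlap.

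Mitochondrial synthetases were less abundant as a class: their RPKM summed to 227, 224 and 229 in AKIT and 201 and 195 in E8, against cytosolic sums of 691, 636 and 789 in AKIT and 559 and 552 in E8. LARS2, the mitochondrial leucyl enzyme, was the member of the class that rose, with 26.1, 25.4 and 26.6 RPKM in AKIT against 18.5 and 19.1 in E8 (0.45 ± 0.09, limma adjusted p = 0.0165). Its values were tight in both media. With 1 of 16 past the test, the class lay near the 8.22% of all genes that rose. PARS2, the prolyl enzyme, had the largest difference of the class, 0.60 ± 0.18, from 14.1, 8.95 and 10.3 RPKM in AKIT against 6.38 and 7.41 in E8, and did not pass (limma adjusted p = 0.0615). Its spread came from AKIT replicate 1, which was far above the other AKIT libraries.

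Several mitochondrial enzymes were higher in every AKIT library without passing. MARS2 for methionine had 29.1, 26.7 and 29.9 RPKM in AKIT against 23.2 and 22.9 in E8 (0.30, limma adjusted p = 0.0696). HARS2 for histidine had 12.2, 12.2 and 13.0 RPKM in AKIT against 9.94 and 9.94 in E8 (0.30, limma adjusted p = 0.0736), and WARS2 for tryptophan averaged 8.04 ± 0.695 RPKM in AKIT and 6.21 ± 0.281 in E8 (0.32, limma adjusted p = 0.0931). EARS2, which charges glutamate in mitochondria, was the most abundant of the class at 33.9 to 36.1 RPKM in AKIT and 29.3 and 29.8 in E8 (0.23, limma adjusted p = 0.114). TARS2, CARS2 and RARS2 were likewise above E8 in all AKIT libraries, with differences of 0.25, 0.16 and 0.30. RARS2, for arginine, was the least abundant synthetase of all, at 1.97, 3.36 and 2.19 RPKM in AKIT against 1.82 and 1.78 in E8, from 53 to 143 reads. AKIT replicate 2 was its highest library by a wide margin.

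The remaining mitochondrial enzymes overlapped or were lower. FARS2, IARS2, AARS2 and SARS2 had differences of 0.24, 0.14, 0.09 and 0.07, each with overlapping libraries. NARS2, the asparaginyl enzyme, was below both E8 libraries in every AKIT library, at 14.3, 11.8 and 13.4 RPKM in AKIT against 14.9 and 14.6 in E8 (-0.16, 95% interval -0.42 to 0.11, limma adjusted p = 0.353). It was the 1 synthetase with all AKIT libraries below E8, an order seen in 28.6% of all genes. YARS2 stood at 22.7, 20.1 and 20.7 RPKM in AKIT and 26.3 and 21.9 in E8 (-0.18), and VARS2 at 3.37, 3.95 and 3.88 in AKIT and 3.59 and 4.73 in E8 (-0.12). Tyrosine was the amino acid for which both the cytosolic and the mitochondrial gene had a difference below 0.

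The AKIT libraries ordered the cytosolic and mitochondrial classes alike only in part. Of the 20 cytosolic enzymes, 17 were highest among the AKIT libraries in replicate 3 and 16 were lowest in replicate 2, where 34.6% and 40.1% of all genes had that order. Of the 16 mitochondrial enzymes, 5 were highest in replicate 3 and 7 in replicate 2, while 9 were lowest in replicate 2. In replicate 3, 0 enzymes of either class were lowest, against 28% of all genes. The class mean of log2(RPKM + 1) was 4.94, 4.84 and 5.11 for cytosolic enzymes in AKIT replicates 1, 2 and 3 and 4.65 and 4.64 in E8. For mitochondrial enzymes it was 3.60, 3.62 and 3.63 in AKIT and 3.43 and 3.43 in E8. The gap between the class means was therefore 1.34, 1.22 and 1.48 in AKIT and 1.22 and 1.21 in E8, so that AKIT replicate 2 lay beside E8 and replicate 3 farthest from it. These genes are not replicates of a class, and the difference between the classes was not tested.

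**Figure D3:**
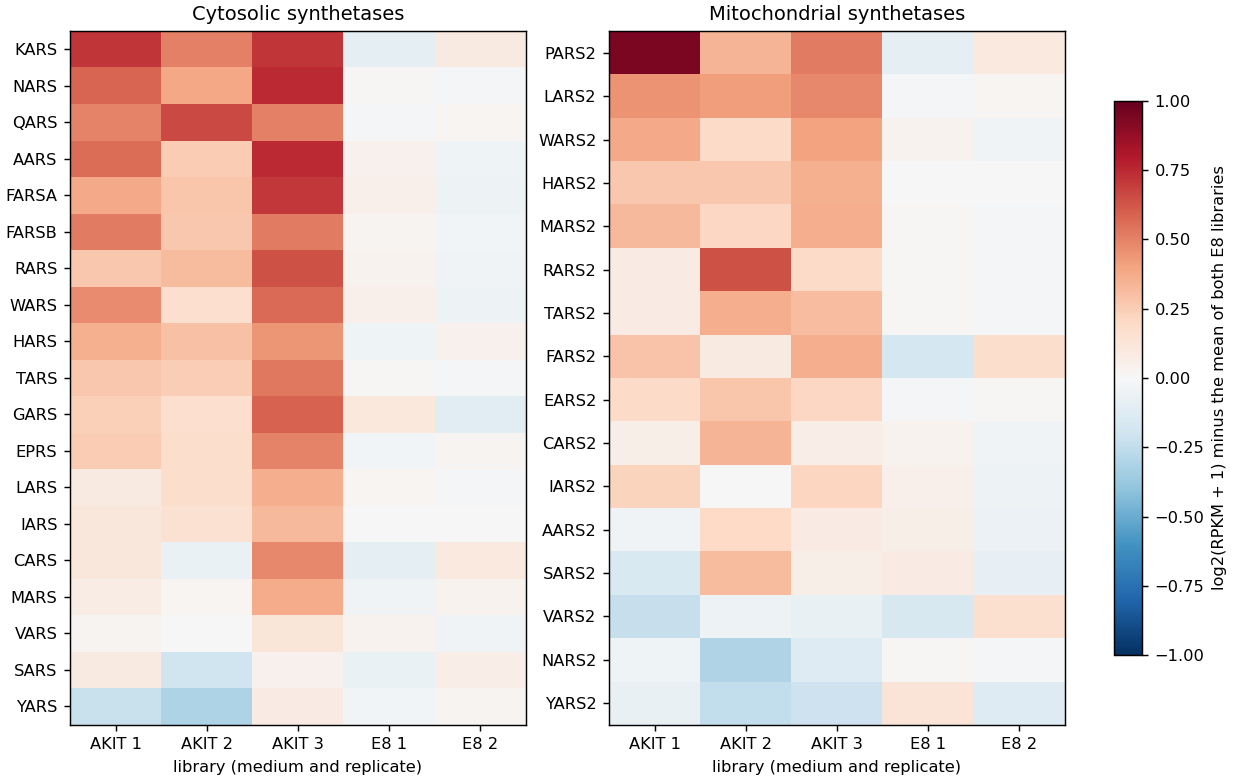
Each cell is log2(RPKM + 1) of a synthetase in a library minus the mean of both E8 libraries, red for higher and blue for lower; rows are ordered by the difference between media. The AKIT 3 column is the darkest for most cytosolic enzymes, and QARS and RARS2 are darkest in AKIT 2.

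Setting each cytosolic enzyme against the mitochondrial enzyme for its amino acid gave 16 pairs, with EPRS standing for glutamate and proline and FARSA for phenylalanine. The log2 ratio of (RPKM + 1) was higher in AKIT for 12 of them. Asparagine differed most: NARS over NARS2 was 2.42, 2.48 and 2.68 in AKIT against 1.79 and 1.80 in E8, a difference of 0.73. That pair had an exact permutation p of 0.1 (two-sided), which is the smallest that 10 arrangements of 3 and 2 libraries allow, so that no pair could pass 0.05. AARS over AARS2 was 2.31, 1.78 and 2.39 in AKIT against 1.71 and 1.74 in E8 (0.43, exact permutation p = 0.2), with replicate 2 close to E8. LARS over LARS2 went the other way, at 0.17, 0.29 and 0.41 in AKIT against 0.58 and 0.49 in E8 (-0.24, exact permutation p = 0.2). The histidine pair differed little, with HARS over HARS2 at 0.31, 0.26 and 0.32 in AKIT and 0.20 and 0.27 in E8 (0.06). Cytosolic RPKM exceeded mitochondrial RPKM in every library for 14 of the pairs. The exceptions were the glutamate pair, where EARS2 was above EPRS in all 5 libraries (by 0.01 in AKIT replicate 3), and the serine pair, where SARS2 was above SARS in AKIT replicate 2.

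**Figure D4:**
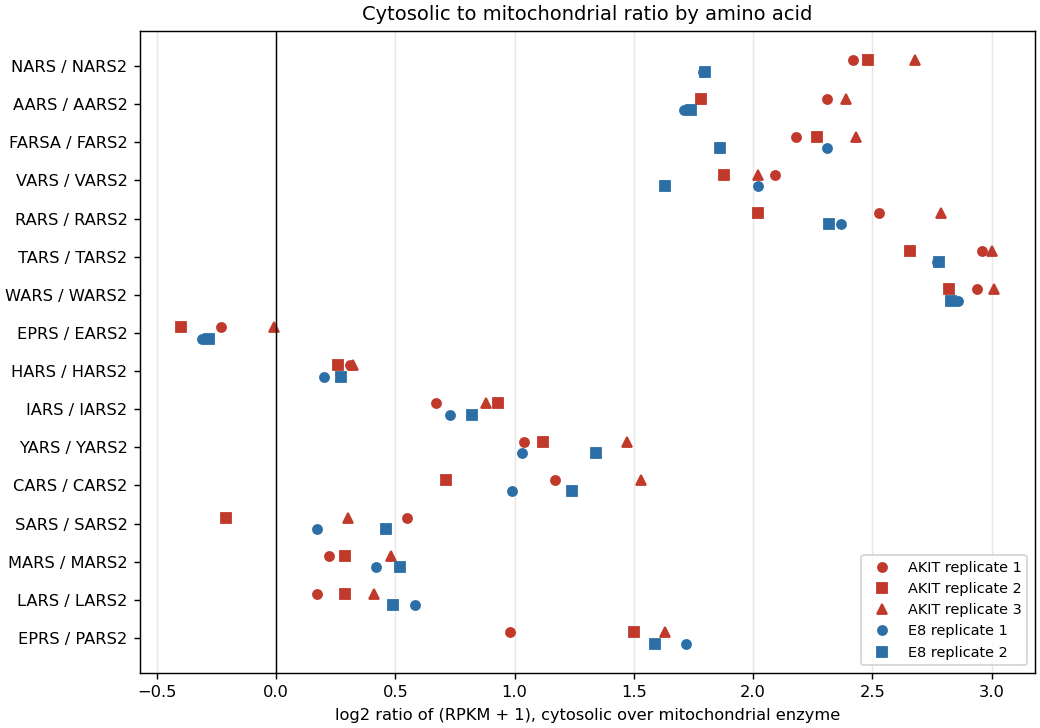
Log2 ratio of (RPKM + 1) of each cytosolic enzyme over the mitochondrial enzyme for the same amino acid, by library; red symbols are AKIT, blue symbols E8, and shapes mark the replicate. NARS / NARS2 at the top has all red symbols at 2.42 or higher and both blue ones at 1.80 or lower, and most other pairs overlap.

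HARS and HARS2 lie head to head, and the 84 bases between their RefSeq starts are shown because they separate a cytosolic from a mitochondrial enzyme for the same amino acid.
HARS to HARS2 (chr5:140691371-140691454, plus strand, GRCh38.p14): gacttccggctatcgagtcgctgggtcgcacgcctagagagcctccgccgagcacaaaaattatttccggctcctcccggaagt
The stretch has a GC content of 59.5%, and neither promoter window held the C/EBP-ATF element. In GENCODE release 29, exons of the pair overlap over 437 bases, which is 5.6% of the exon bases of HARS and 11.7% of those of HARS2. The use of strand in counting is not given in the sources used here, so the reads of this overlap cannot be told apart. Exons of 18 of the 36 synthetases overlap another gene in that annotation. On the same strand, SARS2 shares 46.2% of its exon bases with AC011455.2, VARS2 shares 22.0% with GTF2H4 and HARS2 shares 4.1% with ZMAT2. On the opposite strand, SARS2 shares 10.8% with MRPS12, MARS shares 7.4% with ARHGAP9 and 5.1% with DDIT3, and KARS shares 4.3% with TERF2IP. In addition, 11 members have named pseudogenes in GENCODE, among them KARS, NARS, FARSB, AARS and WARS, and their levels are uncertain to the extent that reads were split with these copies.

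By structural class, 5 of 17 class II enzymes rose and 2 of 19 class I enzymes rose, with EPRS counted in class I although it carries both domains. Within the cytosol these were 5 of 10 in class II (KARS, NARS, FARSB and HARS among them) and 1 of 10 in class I (QARS). The median log2 difference was 0.41 for cytosolic class II and 0.20 for cytosolic class I enzymes. The mitochondrial classes had medians of 0.23 in class I and 0.24 in class II. Over all genes 8.22% rose. Without AKIT replicate 1, 1 class II and 2 class I enzymes rose, and without AKIT replicate 3 it was 2 and 2. With the replicate number as a block it was 0 and 1, and without AKIT replicate 2 it was 10 and 7. The difference in calls between the structural classes was therefore not stable.

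Of the 11 cytosolic synthetases listed as known ATF4 targets, 1 rose (NARS) and 0 fell, with a median log2 difference of 0.31. Over all genes 8.22% rose and 11.7% fell, so 1 of 11 lies near the share that rose. Of the other 9 cytosolic enzymes, 5 rose and 0 fell, with a median of 0.41. Among the 7 genes with the C/EBP-ATF element printed above, NARS passed the test, AARS missed it narrowly, and CARS, GARS, IARS, MARS and TARS did not pass. KARS and QARS, with differences of 0.64 and 0.55, had promoter windows without it. Other genes of the ATF4 pathway went both ways: of 25 tested, 1 rose and 4 fell, with a median of 0.03. The median over all genes was -0.01, and these small counts are not far from the shares of all genes that rose and fell. ASNS, the asparagine synthetase of amino acid metabolism, averaged 17.7 ± 3.75 RPKM in AKIT and 40.2 ± 1.48 in E8 (-1.16 ± 0.18, limma adjusted p = 0.00661). CHAC1, a glutathione-degrading enzyme, fell to 28.1 ± 3.53 RPKM in AKIT, against 49.4 ± 5.72 in E8, and TRIB3, a pseudokinase of the stress response, to 8.14 ± 2.07 against 14.1 ± 0.923. ATF4 itself averaged 197 ± 13.0 RPKM in AKIT and 240 ± 13.3 in E8 (-0.28, limma adjusted p = 0.103). Asparagine was thus an amino acid whose tRNA synthetase NARS rose while its biosynthetic enzyme ASNS fell. Without AKIT replicate 2, 5 of the 11 listed synthetases rose. Of the other 9 cytosolic enzymes, FARSA, FARSB, HARS, KARS, QARS and RARS were among those that rose. In that setting 4 ATF4 pathway genes rose and 4 fell, where 2132 of 14747 genes rose and 2619 fell.

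Around the synthetases in the translation pathway, called genes mostly rose, where 8.22% of all genes rose and 11.7% fell. Of 7 cytosolic elongation factors, EEF1G (0.64 ± 0.13) and EEF1B2 (0.52 ± 0.12), subunits of the exchange factor that recharges the carrier of aminoacyl-tRNA, rose. EEF1A2, a tissue-restricted form of that carrier, fell by 0.56 on the log2 scale. Of 10 mitochondrial translation factors, 1 rose and 0 fell, near the 8.22% of all genes that rose. That gene was TUFM, the mitochondrial carrier of aminoacyl-tRNA, at 101 ± 7.84 RPKM in AKIT and 69.2 ± 2.92 in E8 (0.53 ± 0.10, limma adjusted p = 0.0156). QRSL1, a subunit of the mitochondrial amidotransferase that makes glutaminyl-tRNA, rose (0.48 ± 0.12), while the other subunits PET112 and GATC did not pass at -0.05 and 0.13. Of 10 genes of tRNA export, proofreading and maturation and of mitochondrial RNA, LRPPRC, a stabilizer of mitochondrial messenger RNA (0.77 ± 0.10), and TRNT1, which adds the CCA end to tRNAs (0.33 ± 0.09), rose; without AKIT replicate 2, 4 of these 10 rose. Over all genes 14.5% rose without that library. With either E8 library left out, 1 E8 library remained, too few to judge the calls of this paragraph and of the ATF4 pathway.

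Known regulators of growth and of mitochondria were also read. Of 12 genes for MYC and its targets of growth, 6 rose and 2 fell, against 8.22% and 11.7% of all genes. ODC1, the first enzyme of polyamine synthesis, had the largest rise (0.96 ± 0.12), while MYCN and MYC themselves fell by 0.94 and 0.87. Of 10 genes of mitochondrial biogenesis 1 rose, near the 8.22% of all genes. That gene was POLRMT, the mitochondrial RNA polymerase (0.50 ± 0.12). With either E8 library left out, 1 E8 library remained, too few to judge the calls of these lists. Of the MYC list, 3 rose and 1 fell without AKIT replicate 1, 2 rose and 1 fell without AKIT replicate 3, and POLRMT did not pass in either case. Among 7 tested interferon response genes, set here beside WARS, 0 passed in limma, with 1 at an unadjusted p under 0.05 and 0 with voom on recovered reads. The smallest p-values there were those of ISG15, a ubiquitin-like protein (-0.29, limma adjusted p = 0.124), and IRF1, a transcription factor (0.28, limma adjusted p = 0.183). The difference was below 0 for 5 of the 7, with a median of -0.12.

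The calls rest on few libraries. With E8 replicate 1 or 2 left out, 1 E8 library remained, too few to judge whether the calls held. Without AKIT replicate 2, 12 cytosolic and 5 mitochondrial synthetases rose, while 14.5% of all genes rose, so the calls over the whole table moved with those of the synthetases. In simulated reads at this depth and spread, the AKIT against E8 fit recovered 16.3% of 1.5-fold and 68.8% of 2-fold changes, and most synthetase differences were smaller than 1.5-fold. A synthetase that did not pass is therefore not shown to be unchanged. The same simulated fit, over 14663 genes with 200 changed genes simulated, also made 21 false calls. Some of the synthetases that passed may thus be false calls as well.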

How the data were processed

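Total RNA of KhES-1 cells was purified on silica columns for Illumina sequencing, per the labels' protocols. The authors deposited 1 table of RPKM values, normalized by gene length and library depth, with 1 column per library. Genome builds hg19 and GRCh37 appear in the submitters' processing notes. Aligner, counter, gene annotation and strand setting: not given in the sources used here. Columns were matched to samples by title. Nothing in the labels states separate cultures for the replicates; p-values then reflect only how far these samples spread, which may be technical.

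Low RPKM values of a gene step in multiples of what 1 read is worth. From these steps whole reads (within 0.02) were recovered for all 19892 genes above 0. The test was limma 3.58.1 under R 4.3.3 on log2(RPKM + 1), with the variance prior following intensity, for genes averaging 0.5 RPKM or more, two-sided, Benjamini-Hochberg over 14776 genes at 0.05, without covariates. The log2 scale with a pseudocount understates changes of low genes. The fit was tested on simulated reads with 200 changed genes. The planned 3 against 3 libraries became 3 against 2. Named were the members and, from each other list, up to 3 called genes by size or the 2 with the smallest p. Further genes named are said to be so or were named as pathway members with their values (PET112, GATC, ATF4, EEF1E1, cell type markers). A member that the counts include is not reported here by itself. Members and lists were chosen with earlier results of these data known. Promoter sequences are RefSeq's (GRCh38.p14), matched for 30 of 36 members by symbol or synonym. Alternatives were pseudocounts of 0.5 and 0.1, other filters and scalings, a constant variance prior, array weights, a replicate block, voom on recovered reads, each library left out and, chosen after seeing the data, removal of a loess trend on gene length (span 0.3).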

Additional observations from a re-analysis of the deposited data

How the results depend on the processing

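The difference of 33 of the 36 synthetases kept its sign in all 16 alternatives; SARS, SARS2 and VARS2 did not. Pseudocounts of 0.5 and 0.1 left the 7 called synthetases called. Leaving out 1 library gave 0 to 12 cytosolic and 0 to 5 mitochondrial synthetases that rose, and 142 to 2132 genes that rose and 250 to 2619 that fell over the whole table. The highest counts came without AKIT replicate 2. KARS and QARS were the cytosolic ones that rose without AKIT replicate 1, and KARS, NARS and QARS those without AKIT replicate 3. With array weights 12 cytosolic and 5 mitochondrial synthetases rose, with 2269 genes rising and 2740 falling. With the loess trend on gene length removed, 11 and 5 rose. The cause of these shifts was not tested. AARS passed in 7 alternatives, with limma adjusted p of 0.00483 to 0.283 over all. The share of all genes called up against down moved from 1214 and 1736 to 1420 and 1554 with quantile normalization and to 1735 and 1676 with the length trend removed.

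Replicate numbers are shared by the labels, but deviations of same-numbered libraries correlated at 0.00 and 0.03, so the numbers were not taken as pairs. With the replicate block, fitted on replicates 1 and 2 of each medium, 1 cytosolic (QARS) and 0 mitochondrial synthetases rose, with 512 genes rising and 860 falling. The median log2 difference of the mitochondrial class, 0.23, moved by more than the small spread of its library means: it was 0.25 with a pseudocount of 0.5 and with median-of-ratios rescaling, 0.26 with a pseudocount of 0.1, quantile normalization and voom, 0.22 with array weights, 0.21 with the replicate block, 0.29 with the length trend removed, and 0.20 to 0.24 with a library left out. The cytosolic median, 0.36, was 0.28 with the replicate block, 0.41 with the length trend removed and 0.28 to 0.40 with a library left out. The contrast of the classes thus narrowed to 0.28 against 0.21 without AKIT replicate 3. The replicate block was fitted on those same libraries and gives the same estimates by construction, so it is not a separate check.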
